A study of Mus musculus with 2 samples.

Results

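The recombinase and surrogate light chain genes Rag1, Rag2, Dntt, Igll1, Vpreb1 and Vpreb3 were described at the level of single-cell RNA counts. They were picked by gene symbol and are 6 of the 32285 genes in each count matrix, and each symbol matched 1 gene. Mice with osteoporotic fractures carried an intramedullary nail in the femur, named Mg-TAGelMA in the first group and Mg in the second group, so both groups shared the fracture model and a magnesium nail. Each group is 1 droplet library, made with the Chromium 3′ v3 chemistry from cells of the femoral marrow together with cells adhering to the implant. The labels do not spell out TA and give no strain, age, number of mice or pooling, and cells of marrow and implant cannot be told apart within a library. With 1 library a group there is no replicate and no test between nails. Intervals are 95% intervals that cover counting error only: exact Poisson for levels, Clopper-Pearson for shares and exact conditional binomial for ratios.

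In developing lymphocytes, Rag1 and Rag2 form the recombinase that cuts antibody gene segments at their recombination signals, and Dntt encodes terminal deoxynucleotidyl transferase, which adds untemplated bases at the joints. Igll1, also called lambda5, and Vpreb1 encode the proteins of the surrogate light chain, which pairs with a new heavy chain in the pre-B cell receptor before any light chain exists. Vpreb3 encodes a related protein that associates with heavy chains inside the cell. In bone marrow these genes are known to be switched on in pro-B cells, the surrogate light chain is shut off after the pre-B cell receptor has driven cell division, and the recombinase returns in small resting pre-B cells that rearrange light chain genes.

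Kept cells numbered 7226 with the Mg-TAGelMA nail and 8122 with the Mg nail, with a median of 6744 and 3803.5 UMIs (unique molecular identifiers, counts of captured RNA molecules) per cell, and 21 barcode sequences occurred in both libraries. Before filtering, 62 of 7591 Mg-TAGelMA barcodes and 1091 of 9466 Mg barcodes held over 15% mitochondrial counts. Per the file headers the Mg-TAGelMA counts came from Cell Ranger 7.0.1 and the Mg counts from Cell Ranger 5.0.0, so nail and counting software cannot be told apart. Cells were sorted into gates by UMIs of marker genes that include none of the members, and 973 Mg-TAGelMA cells and 457 Mg cells that passed gates of more than 1 lineage were set aside. The B lineage gate, at least 3 UMIs of Cd79a and Cd79b, held 1592 Mg-TAGelMA cells (22.0% of kept cells) and 3476 Mg cells (42.8%). It was divided into 5 stages. The Ighd stage had at least 2 UMIs of Ighd, or 1 of Fcer2a or Cr2. Of the remaining cells, the pro-B stage had at least 1 UMI of Kit, Cd34 or Flt3, and the cycling stage at least 3 UMIs of Mki67, Top2a, Cdk1, Birc5 and Cenpf. The resting cells were divided at 3 UMIs of Ms4a1 and H2-Aa into Ms4a1-low and Ms4a1-high.

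The Mg-TAGelMA library held 117 pro-B, 86 cycling, 312 resting Ms4a1-low, 229 resting Ms4a1-high and 848 Ighd cells, and the Mg library 88, 504, 884, 421 and 1579 cells in the same order. Genes that the gates did not use fitted these names in part. Il2ra, the interleukin receptor chain that marks small pre-B cells, was highest in the resting Ms4a1-low stage, at 119.7 and 193 CPM (UMIs of the gene per 1000000 UMIs of the gate) in the Mg-TAGelMA and Mg libraries. Cd74, the chaperone of antigen-presenting molecules, reached 5430 and 4400 CPM in the resting Ms4a1-high stage, against 368 and 342 CPM in the Ms4a1-low stage. Igkc, the kappa light chain that is made after the pro-B stage, stood at 2871 and 1582 CPM in the pro-B stage, so the name stands only for the rule that set this gate. The Ighd stage was not uniform: 107 of its Mg-TAGelMA cells and 314 of its Mg cells had at least 3 cycling UMIs or under 3 UMIs of Ms4a1 and H2-Aa. These cells, set apart after the values were seen, had a median of 8804 and 6650.5 UMIs and carried Rag1, Dntt and surrogate light chain RNA, so the levels of the Ighd stage are given with and without them.

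The 6 genes lie at 4 places in the mouse genome (GRCm38, GENCODE vM21). Rag1 (ENSMUSG00000061311), at chr2:101638282-101649501 on the minus strand, and Rag2 (ENSMUSG00000032864), at chr2:101624718-101632529 on the plus strand, face each other tail to tail with 5.752 kb between them. Igll1 (ENSMUSG00000075370), at chr16:16860671-16863985, and Vpreb1 (ENSMUSG00000059305), at chr16:16868403-16870843, both lie on the minus strand 4.417 kb apart. Dntt (ENSMUSG00000025014) lies at chr19:41029275-41059525 and Vpreb3 (ENSMUSG00000000903) at chr10:75943057-75949657, both on the plus strand. Dntt holds 27.959 kb of intron, and the other members between 1.151 kb (Igll1) and 5.742 kb (Vpreb3). Below are the 250 bases before the RefSeq start of Igll1 and Vpreb1, whose RNA followed each other most closely across gates, and of Rag1 and Vpreb3, which were highest in a later stage. Capitals mark matches, on either strand, to the E-box form CAGNTG bound by E proteins, the EBF1 motif CCCNNGGG, the octamer ATTTGCAT and the Ikaros motif TGGGAA.
Igll1, chr16:16863986-16864235, minus strand, GRCm38.p6: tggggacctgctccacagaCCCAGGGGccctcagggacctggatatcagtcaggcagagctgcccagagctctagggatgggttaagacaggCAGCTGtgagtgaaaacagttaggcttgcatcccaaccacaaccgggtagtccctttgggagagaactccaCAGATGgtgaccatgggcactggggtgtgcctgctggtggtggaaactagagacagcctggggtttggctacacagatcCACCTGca
Vpreb1, chr16:16869256-16869505, minus strand, GRCm38.p6: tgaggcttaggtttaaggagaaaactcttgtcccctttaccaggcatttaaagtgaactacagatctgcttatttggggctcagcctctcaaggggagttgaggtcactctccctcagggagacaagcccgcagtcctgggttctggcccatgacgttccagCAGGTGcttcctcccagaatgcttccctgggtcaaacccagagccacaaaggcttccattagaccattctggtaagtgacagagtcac
Rag1, chr2:101649533-101649782, minus strand, GRCm38.p6: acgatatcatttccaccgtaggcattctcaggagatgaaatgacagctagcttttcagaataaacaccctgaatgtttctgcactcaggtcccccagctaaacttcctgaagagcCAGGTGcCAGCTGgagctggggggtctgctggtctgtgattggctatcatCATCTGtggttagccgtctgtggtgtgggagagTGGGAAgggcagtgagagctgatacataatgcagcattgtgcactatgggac
Vpreb3, chr10:75948050-75948299, plus strand, GRCm38.p6: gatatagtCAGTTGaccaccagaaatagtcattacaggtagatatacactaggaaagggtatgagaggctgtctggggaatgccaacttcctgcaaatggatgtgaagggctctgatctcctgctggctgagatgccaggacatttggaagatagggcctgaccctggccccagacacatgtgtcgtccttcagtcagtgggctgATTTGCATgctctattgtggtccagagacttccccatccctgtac

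The sequences are from RefSeq, and the starts of Vpreb1 and Vpreb3 lie inside the longer GENCODE gene models. In these windows Igll1 held 3 matches to CAGNTG and 1 to the EBF1 motif, Vpreb1 held 1 to CAGNTG, Rag1 held 3 to CAGNTG and 1 to the Ikaros motif, and Vpreb3 held 1 to CAGNTG and 1 to the octamer. Of 32851 mouse promoter windows of the same length, 44.8% held CAGNTG, 11.8% the EBF1 motif, 1.60% the octamer and 21.6% the Ikaros motif. The wider E-box CANNTG, which includes CAGNTG, was in all 6 members and in 66.2% of the windows. The FOXO motif GTAAACA was in 0 of the 6 members and in 3.17% of the windows. A match describes the letters of the window and is not a bound site.

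Rag1, the catalytic subunit of the recombinase, was highest in resting Ms4a1-low cells of both libraries. It averaged 121 CPM in the pro-B stage, 54.5 in the cycling stage, 310.1 in the resting Ms4a1-low stage, 48.6 in the resting Ms4a1-high stage and 22.6 in the Ighd stage of the Mg-TAGelMA library. The same 5 stages of the Mg library held 204, 65.1, 634, 111 and 49.4 CPM. In each library the Rag1 interval of the resting Ms4a1-low stage, 283 to 339 CPM in Mg-TAGelMA cells and 606 to 663 CPM in Mg cells, lay above those of the other 4 stages. That stage alone gave 48.5% of all Rag1 UMIs with the Mg-TAGelMA nail and 55.9% with the Mg nail. Without its cycling and Ms4a1-low cells, the Ighd stage fell to 4.34 CPM with the Mg-TAGelMA nail and 16.1 CPM with the Mg nail. In erythroid cells, which should lack the gene, Rag1 stood at 0.971 and 3.64 CPM.

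Rag1 was counted in 204 of 312 resting Ms4a1-low cells (65.4%) with the Mg-TAGelMA nail and in 633 of 884 (71.6%) with the Mg nail. These stages had a median depth of 4991 and 3294.5 UMIs, and after each cell was thinned to 1000 UMIs the shares were 25.5% and 43.9%. In the B gate as a whole 24.9% of Mg-TAGelMA cells and 32.3% of Mg cells held a Rag1 UMI, or 8.55% and 15.3% at 1000 UMIs. The message was sparse in each cell. A positive B gate cell held a median of 2 Rag1 UMIs in either library and at most 13 with the Mg-TAGelMA nail and 21 with the Mg nail.

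Rag2, the partner subunit that binds modified histones, was sparse and had no single stage set apart in both libraries. Its levels in the Mg-TAGelMA library were 22.6 CPM in the pro-B stage, 18.8 in the cycling stage, 20.0 in the resting Ms4a1-low stage, 6.07 in the resting Ms4a1-high stage and 8.32 in the Ighd stage. In the Mg library they were 62.5, 43.6, 78.5, 13.8 and 22.1 CPM. The first 3 of these stages overlapped in their intervals with the Mg-TAGelMA nail, whereas with the Mg nail the resting Ms4a1-low interval (68.8 to 89.1 CPM) lay above the cycling one (38.6 to 49.0 CPM). The share of cells with a Rag2 UMI was higher in the deep cycling cells (15.1% and 35.9%) than in resting Ms4a1-low cells (8.65% and 19.1%), against the order of the CPM, and no order is read from it. Without its cycling and Ms4a1-low cells, the Ighd stage held 2 Rag2 UMIs with the Mg-TAGelMA nail and 11 with the Mg nail.

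Rag1 and Rag2 share their locus with B230118H07Rik, a gene on the minus strand that spans both. It overlaps Rag1 on the same strand, with 80 bases shared between exons, and Rag2 on the opposite strand, with 208 bases. Among the 5 stages it was, like Rag1, highest in the resting Ms4a1-low stage, at 148 CPM with the Mg-TAGelMA nail and 39.6 CPM with the Mg nail, while the order of the lower stages was not that of Rag1 in the Mg library. Whether counting used strand is not given in the sources used here, so reads of these genes in shared bases cannot be told apart.

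Among the B lineage stages, Dntt was highest in the pro-B stage. Its levels in the Mg-TAGelMA library were 159 CPM in pro-B, 51.0 in cycling, 56.4 in resting Ms4a1-low, 8.67 in resting Ms4a1-high and 33.3 in Ighd cells. In the Mg library they were 556, 79.6, 127, 9.23 and 50.7 CPM. The pro-B intervals, 137 to 183 CPM in Mg-TAGelMA cells and 509 to 607 CPM in Mg cells, lay above those of the other stages. The Ighd level came almost wholly from its cycling and Ms4a1-low cells, which held 165 of 168 UMIs with the Mg-TAGelMA nail and 368 of 397 with the Mg nail.

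Few cells carried most of the Dntt RNA. In the B gate 70 of 1592 Mg-TAGelMA cells (4.40%) and 180 of 3476 Mg cells (5.18%) held a Dntt UMI, and 19 and 65 of them held 10 or more. The highest single cell held 44 UMIs with the Mg-TAGelMA nail and 63 with the Mg nail. Of pro-B cells, 22.2% and 29.5% were positive, or 13.7% and 20.5% at 1000 UMIs, so most cells of the pro-B gate had no Dntt UMI in either library. In erythroid cells 0 of 81 Mg-TAGelMA cells held a Dntt UMI, which allows a share of cells with a UMI of up to 3.70%, taking 3 cells of the total as the limit for a count of 0. In the Mg library 2.93% of 923 erythroid cells held one.

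The surrogate light chain genes were also highest in the pro-B stage and next highest in cycling or resting Ms4a1-low cells. Igll1 stood at 389 CPM in pro-B, 196 in cycling, 178 in resting Ms4a1-low, 10.4 in resting Ms4a1-high and 83.2 in Ighd cells of the Mg-TAGelMA library. In the Mg library its levels were 496, 259, 163, 15.8 and 129 CPM. Vpreb1 followed a similar course, with 461, 229, 257, 20.8 and 82.2 CPM with the Mg-TAGelMA nail. With the Mg nail it stood at 752, 369.6, 310.2, 33.6 and 185 CPM. Unlike Igll1, Vpreb1 was slightly higher in resting Ms4a1-low than in cycling cells of the Mg-TAGelMA library. Both genes dropped by far at the step from Ms4a1-low to Ms4a1-high resting cells in both libraries. In the Ighd stage without its cycling and Ms4a1-low cells, Igll1 stood at 3.79 and 10.2 CPM and Vpreb1 at 5.42 and 18.1 CPM, against erythroid levels of 2.91 and 4.23 CPM for Igll1 and 6.80 and 8.35 CPM for Vpreb1.

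Cycling cells were the stage with the highest share of surrogate light chain cells in the Mg-TAGelMA library. Of them 47.7% held an Igll1 UMI and 47.7% a Vpreb1 UMI, and in the Mg library 33.5% and 39.9%. These cells were also the deepest, with a median of 12506.5 and 9541 UMIs, and at 1000 UMIs the Igll1 shares were 18.6% with the Mg-TAGelMA nail and 12.3% with the Mg nail. The corresponding thinned shares of pro-B cells were 17.1% and 17.0%, and the intervals of both stages overlapped in each library. Like Dntt, Igll1 was concentrated: 56 B gate cells with the Mg-TAGelMA nail and 153 with the Mg nail held 10 or more UMIs. For Vpreb1 these numbers were 55 and 184.

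Vpreb1 has a close copy, Vpreb2, whose transcript matched it at 97.4% of 759 aligned bases, so reads of these genes may be divided between them. Vpreb2 was counted at 52.9 CPM in pro-B cells with the Mg-TAGelMA nail and 138 CPM in those with the Mg nail, its highest stages. In cycling cells it stood at 7.15 and 41.5 CPM. The 5′ end of the Vpreb1 gene model also overlaps Top3b, a topoisomerase gene on the other strand, by 108 bases.

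Vpreb3 was found at every stage. In the Mg-TAGelMA library it stood at 1592 CPM in pro-B, 1572 in cycling, 2164 in resting Ms4a1-low, 1076 in resting Ms4a1-high and 549 in Ighd cells. In the Mg library these levels were 1787, 2141, 3921, 2716 and 1279 CPM. The resting Ms4a1-low stage was highest in both libraries, beyond the counting intervals of every other stage. In Ighd cells without their cycling and Ms4a1-low cells, Vpreb3 was the only member whose interval lay above the erythroid one (levels of 32.0 and 52.4 CPM) in both libraries, at 272 CPM with the Mg-TAGelMA nail and 674 CPM with the Mg nail.

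Vpreb3 UMIs were found in at least 94% of pro-B, cycling and resting Ms4a1-low cells of both libraries. The share was 76.0% and 93.8% in resting Ms4a1-high cells and 63.1% and 74.8% in Ighd cells. At 1000 UMIs the Ighd shares were 26.2% with the Mg-TAGelMA nail and 46.8% with the Mg nail. Erythroid cells, at a median of 5832 and 4374 UMIs, had a share of 30.9% and 32.2% before thinning and 2.63% and 6.42% after it. The source of the Vpreb3 UMIs in erythroid cells was not tested, and no expression is read from a share at or below theirs.

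**Figure D1:**
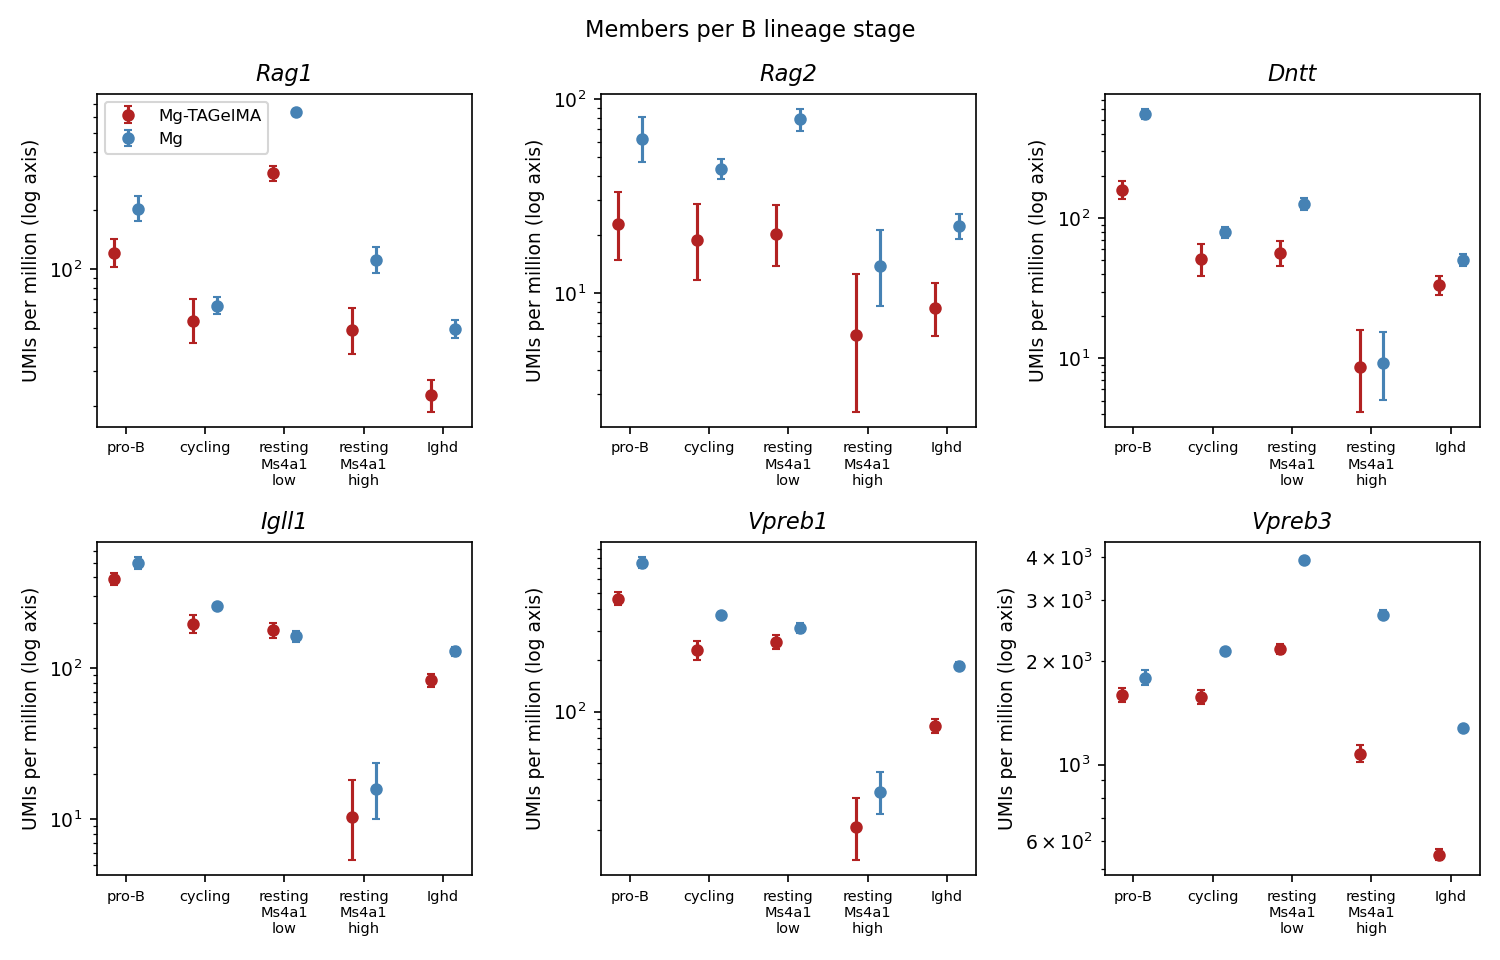
Levels of each gene in the 5 B lineage stages, in CPM of the summed stage on a log axis, with points for the Mg-TAGelMA library (left of each pair) and the Mg library and bars for exact Poisson 95% intervals. Dntt, Igll1 and Vpreb1 are highest in the pro-B stage, and Rag1 and Vpreb3 in the resting Ms4a1-low stage, of both libraries.

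Outside the B and plasma cell gates, Dntt was the only member whose interval lay above those of erythroid cells and neutrophils in both libraries, and it did so in 2 gates. It was counted in 13 of 25 progenitor cells (52.0%) with the Mg-TAGelMA nail and in 14 of 49 (28.6%) with the Mg nail, where the progenitor gate means at least 3 UMIs of Kit, Cd34 and Flt3 and no other lineage. These cells held 143 and 168 Dntt UMIs, or 299.5 CPM (252 to 353) and 179.7 CPM (154 to 209). Plasmacytoid dendritic cells, gated on Siglech, Ccr9 and Klk1, were positive in 27 of 60 cells (45.0%) with the Mg-TAGelMA nail and 13 of 31 (41.9%) with the Mg nail, at 101 and 184 CPM. For comparison, 1.25% of Mg-TAGelMA neutrophils and 2.11% of Mg neutrophils held a Dntt UMI. Median depths were 18354 and 17713 UMIs in progenitor cells, 10913 and 7808 in plasmacytoid dendritic cells and 6289.5 and 3573 in neutrophils. At 1000 UMIs the shares were 12.0% and 12.2% of progenitor cells, 6.67% and 12.9% of plasmacytoid dendritic cells, and 0.282% and 0.437% of neutrophils.

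The ratio of Dntt to Vpreb3 set these gates apart too. Per 100 Vpreb3 UMIs, neutrophils held 5.93 Dntt UMIs with the Mg-TAGelMA nail and 5.80 with the Mg nail. Plasmacytoid dendritic cells held 523 and 375, and progenitor cells 1300 and 329. In the monocyte and macrophage gate these values were 15.2 and 21.6, with 3.88% and 3.72% of cells positive. In the Mg monocyte and macrophage gate, 15 of the 37 Dntt UMIs lay in 1 cell.

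The other members were sparse in these gates, and the intervals of Rag1 in plasmacytoid dendritic cells and of Rag2 in progenitor cells lay above those of erythroid cells and neutrophils in the Mg library. Rag1 was counted in 2 of 60 plasmacytoid dendritic cells (3.33%) with the Mg-TAGelMA nail and 5 of 31 (16.1%) with the Mg nail, on 2 and 7 UMIs. Rag2 was counted in 0 of 25 Mg-TAGelMA progenitor cells, which by the same limit of 3 cells allows a share of cells with a UMI of up to 12.0%, and in 6 of 49 Mg progenitor cells (12.2%), on 18 UMIs with at most 7 in a cell. Plasma cells, of which there were 23 and 7, held 47 Vpreb1 UMIs with the Mg-TAGelMA nail, 45 of them in 1 cell, and 11 with the Mg nail. That same gate held 29 Igll1 UMIs with the Mg-TAGelMA nail, 26 of them in 1 cell, and 4 with the Mg nail.

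T cells, which use the recombinase in the thymus, held few of these UMIs here. Rag1 was counted in 0.772% of 259 Mg-TAGelMA T cells and 2.77% of 433 Mg T cells, against 1.23% and 3.25% of erythroid cells. Dntt was counted in 3.47% and 1.39%, against 1.25% and 2.11% of neutrophils. The erythroid Dntt share was below that of T cells with the Mg-TAGelMA nail and above it with the Mg nail. These shares are unthinned, and T cells were deeper by median than neutrophils and erythroid cells of the same library. Ptcra, the T lineage partner that takes the place of the surrogate light chain in the pre-T cell receptor, had 0 UMIs in Mg-TAGelMA T cells and 3 in Mg T cells. Over all 6 genes, the B gate held between 52.6% (Dntt) and 85.3% (Rag2) of a gene's UMIs with the Mg-TAGelMA nail and between 75.9% (Dntt) and 91.9% (Vpreb3) with the Mg nail.

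**Figure D2:**
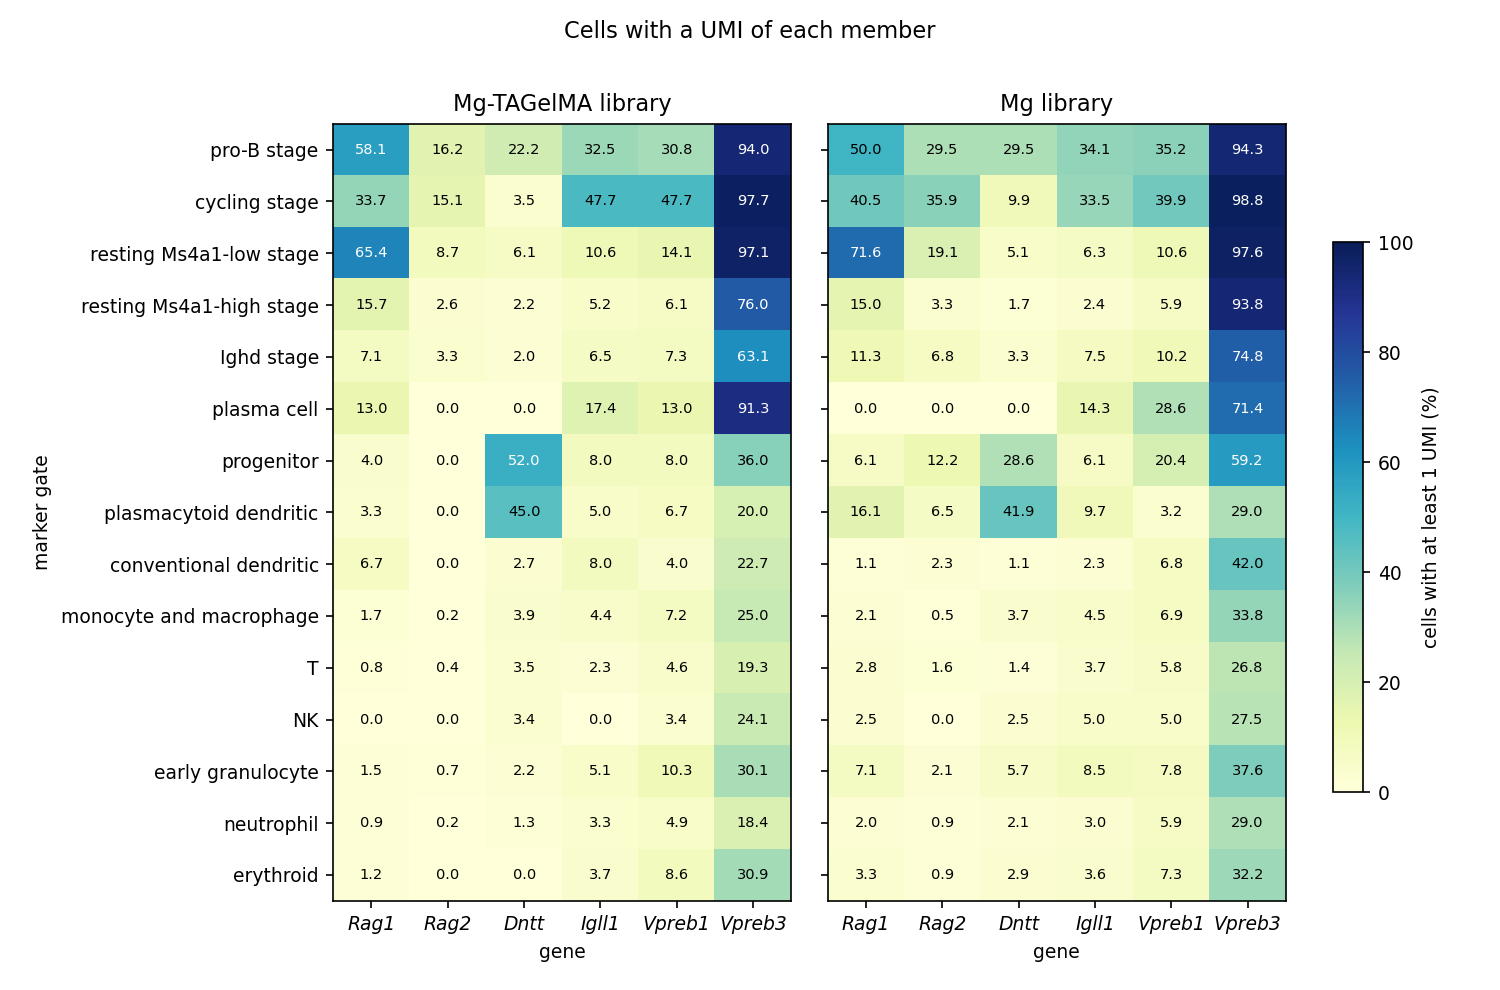
Percent of cells with at least 1 UMI of each gene in the 5 B lineage stages and 10 other marker gates, unthinned, with the Mg-TAGelMA library left and the Mg library right. Rag1, Rag2, Igll1 and Vpreb1 are highest in B lineage stages, and Vpreb3 is also found in 30.9% and 32.2% of erythroid cells. Dntt reaches 45.0% and 41.9% of plasmacytoid dendritic cells, above its unthinned pro-B shares, and is also found in progenitor cells. Plasmacytoid dendritic cells were deeper by median than pro-B cells, and after thinning their Dntt shares lay below the pro-B shares in both libraries. The Dntt level of plasmacytoid dendritic cells was also lower, at 101 and 184 CPM against 159 and 556 CPM in pro-B cells.

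Within the B gate the surrogate light chain genes were found in the same cells. Of 179 Igll1-positive Mg-TAGelMA cells, 112 also held a Vpreb1 UMI (62.6%, 55.0 to 69.7), against 6.02% of Igll1-negative cells. Of 383 Igll1-positive Mg cells, 294 held one (76.8%, 72.2 to 80.9), against 7.05% of Igll1-negative cells. At 1000 UMIs the shares were 62.3% and 56.3% of Igll1-positive cells and 2.50% and 4.13% of Igll1-negative cells. Within the pro-B stage, 78.9% of Mg-TAGelMA and 93.3% of Mg Igll1-positive cells held Vpreb1.

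Most Dntt cells carried the surrogate light chain, but not the reverse. Igll1 was counted in 48 of 70 Dntt-positive Mg-TAGelMA cells (68.6%) and 121 of 180 Dntt-positive Mg cells (67.2%), against 8.61% and 7.95% of Dntt-negative cells. Conversely, 26.8% of Igll1-positive Mg-TAGelMA cells and 31.6% of Igll1-positive Mg cells held Dntt. At 1000 UMIs Igll1 was in 73.5% and 56.8% of Dntt-positive cells. Cells with at least 2 Dntt UMIs and fewer than 2 surrogate light chain UMIs were rare, at 6 with the Mg-TAGelMA nail and 3 with the Mg nail.

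Rag1 was found more often in Rag2-positive than in Rag2-negative cells, though with few Rag2-positive cells left after thinning with the Mg-TAGelMA nail. Rag1 was counted in 54 of 93 Rag2-positive Mg-TAGelMA cells (58.1%) and in 328 of 498 Rag2-positive Mg cells (65.9%), against 22.9% and 26.7% of Rag2-negative cells. In the other direction 13.6% of Rag1-positive Mg-TAGelMA cells and 29.2% of Rag1-positive Mg cells held Rag2. Both genes have few UMIs per cell, so a cell with both messages can be counted for 1 of them only. At 1000 UMIs only 14 Mg-TAGelMA cells were Rag2-positive, and Rag1 was counted in 14.3% of them and in 32.8% of 116 Rag2-positive Mg cells, against 8.50% and 14.6% of Rag2-negative cells.

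Igll1 was also compared with each recombinase gene. Of Rag2-positive cells, 44.1% with the Mg-TAGelMA nail and 30.7% with the Mg nail held Igll1. Of Rag2-negative cells, 9.21% and 7.72% held it. These shares are unthinned, so differences in depth are not taken out of them. Igll1 was counted in 20.4% of Rag1-positive and 8.20% of Rag1-negative cells with the Mg-TAGelMA nail, but in 13.0% and 10.1% of them with the Mg nail. At 1000 UMIs Igll1 was in 6.62% of Rag1-positive and 4.13% of Rag1-negative Mg-TAGelMA cells and in 5.88% and 4.34% of Mg cells, where the intervals of the Rag1-positive cells (3.07 to 12.2% and 4.03 to 8.25%) included the share of the negative ones. In the cycling stage Rag1 was less common in Igll1-positive cells, beyond counting error in the Mg library only. It was counted there in 26.8% of Igll1-positive and 40.0% of Igll1-negative Mg-TAGelMA cells, and in 26.6% and 47.5% of Mg cells, and the interval of the Igll1-positive cells was 14.2 to 42.9% with the Mg-TAGelMA nail and 20.1 to 34.0% with the Mg nail. At 1000 UMIs the cycling shares were 0 of 16 Igll1-positive cells (0 to 20.6%) and 14.3% of Igll1-negative cells with the Mg-TAGelMA nail, and 3.23% (0.393 to 11.2) and 8.60% with the Mg nail, within counting error in both. Vpreb3 was counted in 93.3 to 100% of the cells positive for any other member in either library.

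**Figure D3:**
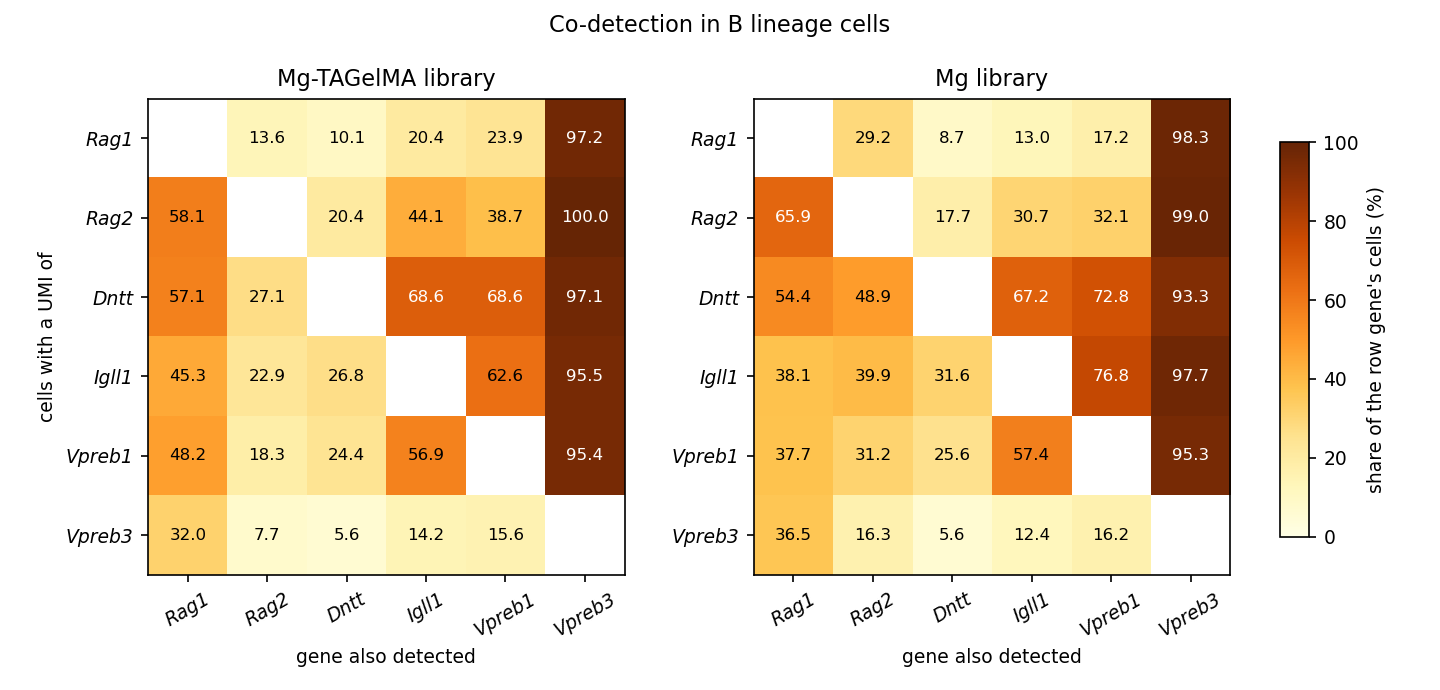
Co-detection in B lineage cells, unthinned, with the Mg-TAGelMA library left and the Mg library right: each square gives the percent of cells with a UMI of the row gene that also hold a UMI of the column gene. Igll1 and Vpreb1 share 62.6% and 76.8% of Igll1 cells, while Rag1 cells hold Igll1 in 20.4% and 13.0%.

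Cells were also grouped by the combination of members they held, by thresholds chosen after the values were seen. Cells with at least 2 Dntt UMIs and at least 2 surrogate light chain UMIs numbered 40 with the Mg-TAGelMA nail (2.51% of the B gate) and 100 with the Mg nail (2.88%). Cells with at least 2 surrogate light chain UMIs and fewer than 2 Dntt UMIs numbered 52 and 133 without a Rag UMI, called surrogate light chain alone, and 53 and 97 with one. Cells with a Rag UMI, fewer than 2 surrogate light chain UMIs and fewer than 2 Dntt UMIs, called Rag alone, numbered 347 (21.8%) and 1103 (31.7%). The most common kind, with 721 Mg-TAGelMA cells (45.3%) and 1611 Mg cells (46.3%), held Vpreb3, no Rag UMI and fewer than 2 UMIs each of the surrogate light chain and of Dntt. Of the rest, 358 (22.5%) and 391 (11.2%) held a UMI of none of the 6 genes.

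These kinds differed in genes that did not define them. Cycling cells, with at least 3 cycling UMIs, made up 75.0% of Mg-TAGelMA and 92.5% of Mg cells with the surrogate light chain alone. They made up 13.8% and 26.8% of the cells with Rag alone. In CPM, each of these cycling genes was higher with the surrogate light chain alone in the Mg-TAGelMA library (Mki67 at 570 against 155). Across these cycling genes the Mg library did not share this difference. There Mki67 (774 against 921), Top2a (870 against 906) and Cenpf (306 against 380) were lower with the surrogate light chain alone. Cdk1 (210 against 190) and Birc5 (340 against 316) were slightly higher. Mcm2 and Hist1h1b, which set no gate, were higher with the surrogate light chain alone in both libraries. Mcm2 stood at 146 against 15.6 CPM with the Mg-TAGelMA nail and 260 against 83.8 CPM with the Mg nail. Hist1h1b stood at 491 against 127 CPM and 1410 against 1098 CPM in the same order. Il2ra was at 2.45 and 3.37 CPM in cells with Dntt and the surrogate light chain, 12.0 and 7.11 CPM in those with the surrogate light chain alone, and 108 and 128 CPM in those with Rag alone. Il7r, the receptor chain for the growth factor interleukin-7, was at 279.8 and 308 CPM, 369 and 303 CPM, and 349.7 and 649 CPM in the same kinds. Cells with none of the members held Ighd at 529.9 and 1246 CPM and Cd74 at 8819 and 9036 CPM. Median depth also differed, at 13485 and 22190 UMIs for the surrogate light chain alone against 5736 and 3752 for Rag alone, and its part in these numbers was not tested.

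Across 23 points, the members varied together on the log2(CPM + 1) scale. The points were the 12 gates and stages with the Mg-TAGelMA nail and the 11 with the Mg nail with at least 50 cells. The smaller gates left out include the progenitor gates of both libraries and the Mg plasmacytoid dendritic gate, where Dntt UMIs outnumbered Vpreb3 UMIs. Pearson's r between members ran from 0.73 (Dntt and Vpreb3) to 0.98 (Igll1 and Vpreb1). Points of a library share its depth and free RNA, and genes high in B cells only are alike by that alone. Among 6974 genes, the closest to Rag1 were Fam129c (r = 0.96) and Gm34095 (0.96), with Vpreb3, Uchl1 and Slc12a3 next. Closest to Rag2 was Lig4 (0.97), the ligase that seals the broken ends after Rag has cut, followed by Vpreb3, Vpreb1, Bcl7a and 2010007H06Rik. Dntt stood nearest to Arpp21 (0.91) and Lgr5 (0.88), then Igll1, Epha2 and Vpreb1. After each other, Igll1 and Vpreb1 were nearest to Gfra2 (0.97 and 0.97), a receptor of neurotrophic factors, and both lists held Tnfrsf19. Rsph9 and 1810059H22Rik completed the list of Igll1, and Vpreb2 and Rag2 that of Vpreb1. Vpreb3 was nearest to Pou2af1 (0.99), a coactivator of octamer-binding factors, and its list also held 2010007H06Rik, Fam129c and Bcl7a.

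Between the libraries, all 6 genes were lower in the B gate of the Mg-TAGelMA library, except that the Igll1 ratio was 1.31 on cells thinned to 1000 UMIs. Rag1 averaged 86.0 CPM in Mg-TAGelMA cells and 156 CPM in Mg cells, a ratio of 0.552 (0.511 to 0.595). For Rag2 the levels were 12.7 and 38.9 CPM, a ratio of 0.326 (0.269 to 0.394). Dntt, at 50.5 and 92.0 CPM, had a ratio of 0.548, and Vpreb3, at 1098 and 2098 CPM, one of 0.523. The surrogate light chain genes had the ratios nearest to 1, with 0.743 (0.698 to 0.791) for Igll1 at 137 and 185 CPM and 0.583 (0.551 to 0.616) for Vpreb1 at 163 and 279 CPM, and the Vpreb1 interval overlapped that of Rag1. Since the B gate was also a smaller part of the Mg-TAGelMA library, ratios within the gate are smaller differences than those over all cells, and within it fewer positive cells and less RNA per cell cannot be told apart.

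A gene was called lower when the interval of its ratio lay wholly below the 2-fold bound and the higher library held at least 50 CPM. In the B gate 0 of the 6 members were called lower, where 3.55% of 4198 genes were. Rag2 met the first condition and not the second. When genes with at most 8 kb of annotated intron alone set the scale, every member's ratio was higher, while the median log2 ratio of those genes was -0.21. Dntt has more intron than that, so its counts were divided by the same totals but it is not among the genes counted on this scale. The ratios on this short-intron scale were 0.666 for Rag1, 0.394 (0.324 to 0.476) for Rag2, 0.662 for Dntt, 0.897 for Igll1, 0.704 for Vpreb1 and 0.632 for Vpreb3. Rag2 was then called lower, 1 of the 5 members other than Dntt, against 2.57% of 1671 genes. No member was called higher in the gate, where 21.9% of genes were on the total scale and 7.3% on the short-intron scale. When B gate cells that also passed another lineage's gate were kept, 5 of 6 members were called lower, from 0.287 for Vpreb3 to 0.456 for Igll1, against 3.62% of 4140 genes. The Rag2 ratio was then 0.169 (0.140 to 0.203), at 5.27 CPM in Mg-TAGelMA cells and 31.2 CPM in Mg cells, below the 50 CPM that a call needs. Keeping these cells changed the libraries unequally: Rag1 went from 86.0 to 36.5 CPM with the Mg-TAGelMA nail and from 156 to 124 CPM with the Mg nail. All cells of more than 1 lineage had a median of 21473 and 11435 UMIs. The part of their other RNA in these ratios was not tested. Vpreb3 was also called lower with TMM (0.450, against 8.23% of genes) and with median-ratio size factors (0.448, against 8.46%). Rag2 was called without a CPM minimum, against 1.55% of genes, and Dntt with stages weighted equally (0.374, by the ratio alone, against 3.09%). At a 1.5-fold bound Rag1, Dntt, Vpreb1 and Vpreb3 were called, 4 of 6 members against 15.1% of genes. When each cell was thinned to 1000 UMIs, so that each weighed the same, the Igll1 ratio was 1.31 (1.06 to 1.61).

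Within stages, different members stood out. Dntt was called lower in the pro-B stage, with a ratio of 0.286 (0.240 to 0.339) from 158.7 CPM in Mg-TAGelMA cells and 556 CPM in Mg cells, 1 of 6 members against 1.72% of 4368 genes. Divided by the short-intron totals, the Dntt ratio there was 0.347 (0.291 to 0.411), and of the 5 other members 0 were called there on that scale, against 1.36% of its genes. The pro-B gate held 7.35% of the Mg-TAGelMA B gate and 2.53% of the Mg one, and few of its cells carried Dntt. The interval counts UMIs and does not cover this. In cells grouped by Dntt with the surrogate light chain, Dntt stood at 1016 and 1397 CPM. That group was set by its Dntt UMIs, so its level is no independent measure of RNA per cell. Which cells entered the pro-B gate and RNA per cell cannot be told apart. In the cycling stage 0 of 6 members were called, against 1.12% of genes, and the Rag1 interval (0.629 to 1.10) included 1. Rag2 was called in the resting Ms4a1-low stage, at 20.0 and 78.5 CPM with a ratio of 0.256 (0.171 to 0.371), 1 of 6 members against 1.25% of genes, and on the short-intron scale at 0.301 (background 1.51%).

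In that same stage the Igll1 ratio was 1.09 (0.942 to 1.27) on the total scale, where its interval included 1, and 1.29 (1.11 to 1.49) on the short-intron scale, where it did not. The resting Ms4a1-high stage had 1 of 6 members called, against 1.77% of genes: Vpreb3, with a ratio of 0.396 (0.372 to 0.422), and 0.467 on the short-intron scale (background 1.73%). In the Ighd stage Vpreb1 (0.445) and Vpreb3 (0.429) were called, 2 of 6 members against 2.93% of genes. Neither was called there on the short-intron scale, where their ratios were 0.545 and 0.526 and the background 2.34%. On the short-intron scale 0 of the 5 members other than Dntt were called in the cycling stage, against 1.7% of genes. No stage had a member called higher: the background was 16.2% of genes in the pro-B stage, 15.4% in the cycling stage, 16.0% in the resting Ms4a1-low stage, 16.3% in the resting Ms4a1-high stage and 21.9% in the Ighd stage. On the short-intron scale it was 5.89%, 6.06%, 5.82%, 5.06% and 6.71% in the same order. Without its cycling and Ms4a1-low cells the Ighd stage had 1 of 6 members called, against 4.6% of genes: Vpreb3, with a ratio of 0.403 (0.374 to 0.433). On the short-intron scale its ratio was 0.493 and not called (background 3.5%). Vpreb1, at 5.42 and 18.1 CPM with a ratio of 0.299, was then below the 50 CPM that a call needs. Vpreb3 in the pro-B stage was near equal, at 0.891 on the total scale and 1.08 on the short-intron scale.

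**Figure D4:**
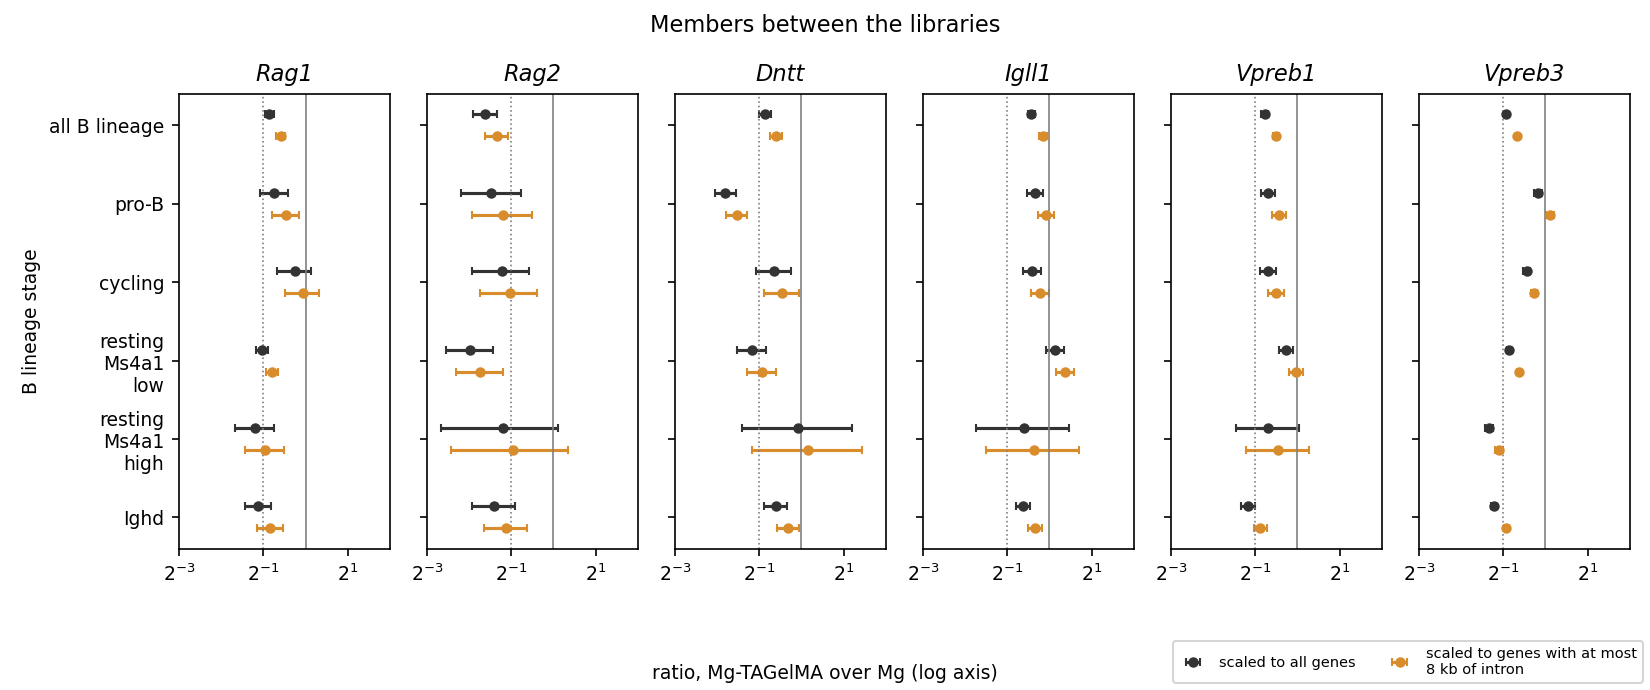
Ratio of each gene's level, Mg-TAGelMA over Mg, in the whole B gate and its 5 stages on a log axis, with exact conditional 95% intervals that cover counting error only, scaled to all genes (dark) or to genes with at most 8 kb of intron (orange). The dotted line is the 2-fold bound: Rag2 in the resting Ms4a1-low stage lies below it on both scales, and Dntt in the pro-B stage does so too, although Dntt itself has over 8 kb of intron and is not among the genes that set the second scale.

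Outside the B lineage the Dntt ratio was 1.67 (1.32 to 2.10) in the progenitor gate and 0.548 (0.371 to 0.818) in plasmacytoid dendritic cells. The first gate had 25 cells with the Mg-TAGelMA nail and 49 with the Mg nail. The neighbours of the members by sequence or place had ratios on both sides of 1 in the B gate. Vpreb2 had a ratio of 0.443 (0.367 to 0.532). B230118H07Rik, at 47.9 CPM in Mg-TAGelMA cells and 13.5 CPM in Mg cells, had one of 3.55 (3.05 to 4.14). It runs over Rag1 and Rag2, and the part of intron counting or shared bases in its ratio was not tested.

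Among lists of genes that work with the members, only end joining had calls in both directions, and its share of higher calls was near that of all genes. The end joining list held 15 genes, most of which work in the repair of the breaks that Rag makes. It included Hmgb1 and Hmgb2, which are not end joining genes and were not called. Of the 15 genes, 9 held at least 50 CPM in the higher library. In the Mg-TAGelMA B gate 1 of these was called lower and 2 higher, against 3.55% and 21.9% of all genes. Lig4 was the one called lower, 2.61-fold at 20.2 CPM in Mg-TAGelMA cells and 52.6 CPM in Mg cells, and it was not called on the short-intron scale (0.462). Xrcc4, which holds the ligase, had a ratio of 5.99, and Dclre1c, the nuclease Artemis that opens hairpin ends, one of 4.89. Of 10 pre-B cell receptor and signalling genes, all 10 held at least 50 CPM, and against the same shares of all genes 0 were called lower and 4 higher: Lyn (6.49) and Syk (2.60), kinases of the receptor, Blnk (5.90), their adaptor, and Plcg2 (2.23), a phospholipase downstream.

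Of 15 factors and receptor genes known from the control of Rag, 14 held at least 50 CPM, and 0 were called lower and 5 higher, against the same 3.55% and 21.9%. The largest ratios were those of Bach2 (7.49), Foxo1 (4.08), Ikzf3 (3.47) and Ebf1 (3.32), transcription factors of B cell development. The median log2 ratio was 0.34 for end joining, 0.90 for the receptor list and 0.67 for the factors, against -0.00207 for all genes. The genes named as higher hold between 30.7 kb (Dclre1c) and 381 kb (Ebf1) of intron. On the short-intron scale 5, 4 and 1 genes of these lists could be compared, 0 of each were called in either direction, and their median log2 ratios were -0.54, -0.25 and -0.33, against -0.21 for all such genes. The part of intron counting in these ratios was not tested.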

How the data were processed

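Single-cell RNA of 2 mouse libraries, 1 per nail, was measured. The values deposited are unnormalized UMI counts for each gene in each barcode. Per the file headers the authors made these counts with Cell Ranger 7.0.1 (Mg-TAGelMA) and 5.0.0 (Mg). The submitters' processing notes name STAR and mm10. Annotation release, intron and strand settings and pooling are not given in the sources used here. Over all barcodes the Mg-TAGelMA library held 79890998 UMIs and the Mg library 58261391.

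Barcodes with at least 200 genes and at most 15% mitochondrial counts were kept, and scrublet doublets were removed (297 or 3.95% in the Mg-TAGelMA library, 197 or 2.37% in the Mg library). Marker gates used summed UMIs; plasma cell and B gates counted as 1 lineage. UMIs were summed per library and gate and divided by the gate's total. Shares were recomputed after thinning cells to 1000 UMIs, leaving out shallower cells (2 of 1592 Mg-TAGelMA and 22 of 3476 Mg B gate cells). Gene models were GENCODE vM21 (32158 of 32285 identifiers matched), promoters RefSeq. Named genes are the members, pathway genes past the size rule (at most 4 a list) and the 5 genes most correlated with each member; 1 of these is not reported here. The members and lists were chosen with earlier results of these data known. The short-intron scale divides by, and counts calls among, genes whose introns sum to 8 kb or less. Alternatives covered filters, gates, thinning, scaling and thresholds. Scripts, tested on simulated data, used Python 3.11.15, scanpy 1.11.5, numpy 2.4.6, scipy 1.17.1, R 4.3.3, edgeR 4.0.16 (scaling factors only) and DESeq2 1.42.0 (scaling factors only).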

Additional observations from a re-analysis of the deposited data

Results flagged for a closer look

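Some genes stood on opposite sides of equality in different gates, beyond their counting intervals, and these differences were not tested because each nail has 1 library. The Dntt ratio, Mg-TAGelMA over Mg, was 1.67 in the progenitor gate, or 1.93 on the scale of genes with at most 8 kb of intron. It lay under 1 in 5 other gates on either scale, and Dntt itself has over 8 kb of intron. The progenitor ratio rests on few positive cells, which a counting interval does not take into account. On that second scale Igll1 had a ratio of 1.29 in the resting Ms4a1-low stage and lay under 1 in 2 other gates. On the same scale the Vpreb3 ratio was 1.08 in the pro-B stage and under 1 in 5 other gates.

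Cells that no comparison used also carried the members. Summed over the 6 genes, cells that passed gates of more than 1 lineage held 127 CPM with the Mg-TAGelMA nail and 327 CPM with the Mg nail, and cells that passed no gate held 88.6 CPM and 732 CPM. The erythroid level of the same sum was 42.7 CPM and 72.9 CPM. The cells that passed no gate were shallow, with a median of 2502.5 UMIs with the Mg-TAGelMA nail and 975 with the Mg nail.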

How the results depend on the processing

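No paired analysis was possible because each nail has 1 library and no replicate numbers. With no cell filter, at least 500 genes, doublets kept, a B gate at 2 UMIs, a higher minimum of UMIs per cell, or a total without Gm42418 and AY036118, all B gate ratios, shares and co-detection shares computed there stayed within counting error or kept their call. With cells of several lineages kept in the B gate, ratios were 0.293 (Rag1), 0.309 (Dntt), 0.456 (Igll1), 0.367 (Vpreb1) and 0.287 (Vpreb3), all past the 2-fold bound, and 0.169 (Rag2, below the level minimum), and Mg-TAGelMA shares moved to 20.4% (Rag1), 4.69% (Rag2) and 71.2% (Vpreb3), with Vpreb1 in 53.5% of Igll1 cells. A B gate at 6 UMIs gave Vpreb3 in 88.0% of Mg cells. Ratios past the bound were also Vpreb3 at 0.450 (TMM) and 0.448 (median-ratio factors), which put the median log2 ratio of all genes at -0.29 and -0.30, Dntt at 0.374 (stages weighted equally), Rag2 at 0.326 (no CPM minimum) and 0.394 (short-intron scale), and, at a 1.5-fold bound, Rag1 at 0.552, Dntt at 0.548, Vpreb1 at 0.583 and Vpreb3 at 0.523. Thinning to 1000 UMIs turned the Igll1 ratio to 1.31; the cause was not tested. It lowered the shares by construction, to 8.55% (Rag1), 0.881% (Rag2), 2.14% (Dntt), 4.34% (Igll1), 5.09% (Vpreb1) and 46.7% (Vpreb3) of Mg-TAGelMA cells and 15.3%, 3.36%, 2.55%, 4.57%, 6.51% and 69.4% of Mg cells. Co-detection then moved to 14.3% (Rag1 in Rag2 cells) and 6.62% (Igll1 in Rag1 cells) with the Mg-TAGelMA nail, and to 56.3% (Vpreb1 in Igll1 cells), 32.8%, 56.8% (Igll1 in Dntt cells) and 5.88% with the Mg nail. Of 60 stage values, 20 moved with the pro-B stage at 2 UMIs, 10 and 7 with the resting division at 2 and 5 UMIs, and 2 with cycling at 5 UMIs. The short-intron scale and the narrower Ighd stage were chosen after seeing the data. Depth limits Rag2 most, with 128 Mg-TAGelMA UMIs in the B gate.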
